A study of Mus musculus with 2 samples.

Results

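The genes described are 9 genes of the cytotoxic granule: the granzyme genes Gzma, Gzmb, Gzmk and Gzmm, the perforin gene Prf1, and Nkg7, Ctsw, Cst7 and Srgn. They were chosen by name, and every non-control probe that carries 1 of these names on both arrays was taken, which gave 14 of 56602 probes and 9 of 24813 named genes. The study took Peyer's patches, follicle-rich lymphoid tissue in the wall of the mouse small intestine, and compared expression in cells sorted by a green fluorescent reporter for S100A4. The 2 groups were S100A4-positive cells and S100A4-negative cells, both from S100A4-GFP transgenic mice of the C57BL/6 strain, released from the small intestine with dispase, collagenase and DNase. The age and number of the mice, and whether they were pooled, are not given in the sources used here. The sort followed the reporter and no other marker is named. Each group was 1 sample on 1 array, without replicates, so differences are given as sizes and none was tested.

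Cytotoxic lymphocytes kill by releasing granules towards a target cell. Perforin opens pores in the target membrane, and granzymes, a family of serine proteases, pass through them and cleave proteins inside the target. In the granule these proteins are held on serglycin, a proteoglycan scaffold, and granzymes are activated by the protease cathepsin C, which cystatin F holds in check. In the gut, granzymes are best known from intraepithelial T lymphocytes, CD8 T cells and natural killer cells.

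Each value was read by a 60-base probe, and the probes that carry the results are shown first. The Gzma probe, which gave the largest difference, lies on chromosome 13 of the mm9 build at chr13:113884035-113884094, minus strand. The Gzmb probe lies at chr14:56877916-56877975, minus strand, and that of Nkg7 at chr7:50693482-50693541, plus strand. The last 30 bases of each are given because their surroundings were not annotated here. Capitals mark the polyadenylation hexamer AATAAA, found in the Gzma probe with 13 bases after it.
Gzma: gtctgatcacaAATAAAatcaacttgaatg
Gzmb: attaatagctccctacagaactttcataca
Nkg7: tcctctcaggagctacaaaaggaatgcaga

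Gzmk, Gzmm and Ctsw were each read by 2 probes. The probes shown whole have at least 1 reading frame with no stop codon over all 60 bases. They lie at chr13:113962100-113962159 on the minus strand (Gzmk), chr10:79157233-79157292 on the plus strand (Gzmm) and chr19:5466250-5466309 on the minus strand (Ctsw).
Gzmk: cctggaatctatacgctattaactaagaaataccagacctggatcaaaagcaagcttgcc
Gzmm: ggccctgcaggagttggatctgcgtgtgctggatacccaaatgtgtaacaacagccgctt
Ctsw: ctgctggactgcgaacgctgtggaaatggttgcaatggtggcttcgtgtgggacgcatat

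Srgn was read by 3 probes that do not cover the same part of the gene. The probe of the RefSeq transcript lies at chr10:61957432-61957491 on the minus strand. A second probe, A_55_P2715610, lies about the start of a further RefSeq transcript: all 60 of its bases match the GRCm38.p6 sequence at chr10:62507735-62507794, from 37 bases before that start to 23 bases after it. The third, A_66_P125332, spans 5313 bases of the mm9 build, and its last 30 bases match the sequence just upstream of the same start (GRCm38.p6 chr10:62507809-62507838). The last 30 bases of each are shown, since the transcript probe gave a different result from the others.
Srgn transcript probe: cattaactcgtaaggaattatgctttaatg
Srgn A_55_P2715610: ccctgctacatttgctaatccagaggctga
Srgn A_66_P125332: aggaaactgtgacgtgtgttcttgggcagg

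The S100A4-positive array had 52.3% and the S100A4-negative array 53.3% of 59305 non-control spots well above background, with none saturated. Signals are given relative to the 75th percentile of the array, which was 287.3 on the positive and 445.9 on the negative array, and differences are log2, positive minus negative. The error beside a difference is that of the scanner software for the spots, ± 0.20 for a typical gene, and holds nothing of the variation among animals or sorts. As a check of the sort, S100a4 read 415 times the percentile on the positive and 2.37 times on the negative array, a log2 difference of 7.45. A probe not well above background on 1 array gives only a bound, computed against the higher of its own signal and the dimmest detected probe of that array. Signals of different probes are not comparable as levels. Because whole populations were measured, fewer cells of a type and less RNA per cell cannot be told apart.

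Of the 9 granule genes, 5 were at least 2-fold lower in S100A4-positive cells (Gzma, Gzmk, Nkg7, Gzmb and Ctsw), 2 were at least 2-fold higher (Cst7 and Srgn) and 2 lay within 2-fold (Prf1 and Gzmm). The same sizes were reached by 17.0% (lower) and 21.4% (higher) of the 15245 genes detected on 1 array or both. The median difference over the 9 genes was -1.08, or -0.89 over the 8 measured on both arrays, against 0.01 over all detected genes. Past 4-fold, 4.99% of all genes were lower, among them Gzma, Gzmk, Nkg7 and Gzmb, and 9.88% were higher, among them none of the 9. Counted by probe, 7 of 14 were lower and 2 higher by 2-fold or more, against 14.8% and 20.9% of 31583 detected probes. All of these directions are relative to the 75th percentile. With the arrays scaled on the spike-in controls, every gene measured on both arrays shifted by -2.50. Then 83.1% of all genes were lower and 3.90% higher, and Cst7 and Srgn stood at -0.84 and -1.01. With no scaling, 35.0% of all genes were lower and 12.9% higher.

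**Figure D1:**
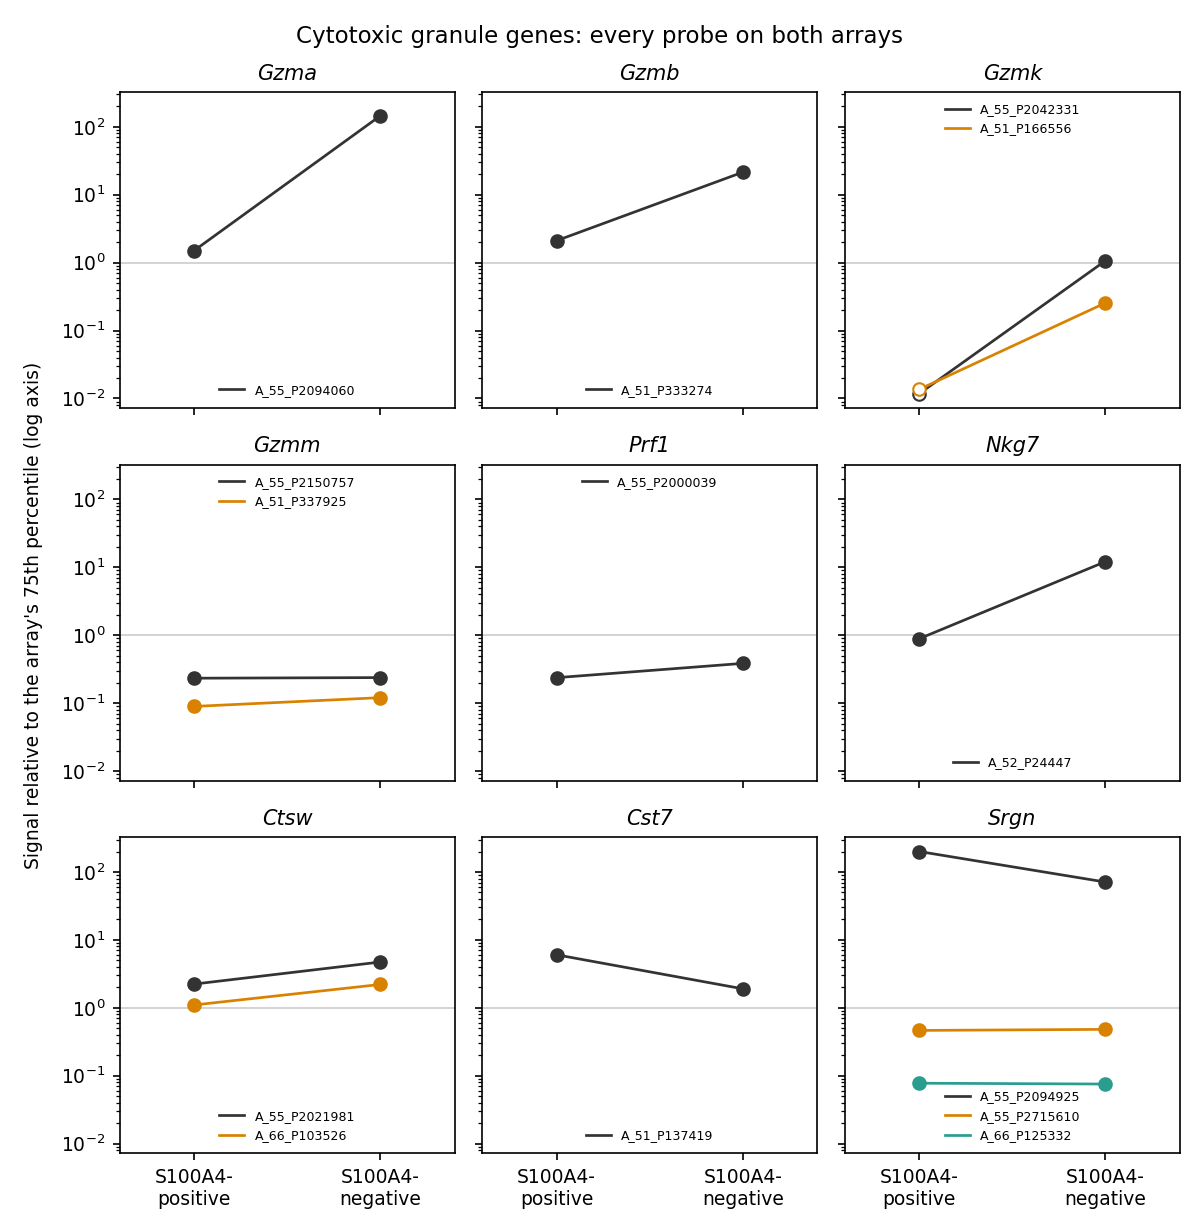
Signal of each of the 14 probes relative to the 75th percentile of its array (log axis), with the S100A4-positive array on the left and the S100A4-negative array on the right of each panel; open symbols were not well above background. Lines climb to the right for Gzma, Gzmb, Gzmk and Nkg7 and descend for Cst7 and for 1 of 3 Srgn probes, and levels are comparable along a line only.

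The granzymes are the proteases of the granule. Gzma, which encodes granzyme A, a protease that cuts after basic residues, read 1.51 times the 75th percentile in S100A4-positive cells and 145 times in S100A4-negative cells. It was 96.6-fold lower in the positive cells, a log2 difference of -6.59 ± 0.20, which ranked 12 from the lowest of 15245 genes. Its raw signal was 8.28 times the local background on the positive and 1158 times on the negative array, so the gene was detected in both.

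Gzmb, which encodes granzyme B, a protease that cuts after aspartate and starts apoptosis, read 2.11 times the percentile in S100A4-positive cells and 21.5 times in S100A4-negative cells. It was 10.2-fold lower, at -3.35 ± 0.20, and ranked 216 from the lowest. The gap between the differences of Gzma and Gzmb, -3.24 ± 0.29, is the same under any constant scaling of the arrays and ran from -3.35 to -3.20 over 11 settings.

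Gzmk, which encodes granzyme K, a trypsin-like protease whose gene lies next to Gzma, was well above background in S100A4-negative cells only, at both of its probes. Its brighter probe had a processed signal of 3.38 in S100A4-positive cells, under the dimmest detected signal of 15.7, and 474 in S100A4-negative cells. That makes Gzmk at least 19.4-fold lower in the positive cells at this probe, a bound of -4.28, which normexp, another background correction, reduced to -2.41. The other probe, whose sequence is given above, read 3.91 and 114, which gave a bound of at least 4.65-fold lower, or -2.22, and of -0.65 with normexp, under 2-fold. Both probes put the gene lower in the positive cells, and by 2-fold under both corrections at the brighter probe alone.

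Gzmm, which encodes granzyme M, a protease that cuts after methionine, was dim on both arrays. Its brighter probe read 0.233 times the percentile in S100A4-positive cells and 0.238 times in S100A4-negative cells, a difference of -0.03 ± 0.23. The other probe read 0.0894 and 0.120 times, a difference of -0.43 ± 0.33. Raw signals were between 1.61 and 2.89 times the local background, and neither probe reached the 2-fold size.

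Prf1, which encodes perforin, the pore-forming protein, read 0.237 times the percentile in S100A4-positive cells and 0.385 times in S100A4-negative cells. The difference was -0.70 ± 0.22, or 1.62-fold lower, under the 2-fold size. Its raw signal was 2.38 times the local background on the positive and 3.32 times on the negative array, and with normexp the difference came to 0.00. Gzma, Gzmb and Nkg7 were lower than Prf1 by gaps of -5.89 ± 0.30, -2.65 ± 0.30 and -3.07 ± 0.30 between their log2 differences, which any constant scaling leaves as they are. The measured differences were thus unequal, but the Prf1 probe was dim. The dimmest detected signal of the positive array was 0.0548 times the percentile. A fall of Prf1 as large as that of any of these 3 genes would have ended under it and given only a bound. Whether perforin and these genes differ between the populations by the same factor was therefore not tested.

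Nkg7, which encodes a membrane protein of cytotoxic granules that takes part in their release, read 0.888 times the percentile in S100A4-positive cells and 12.1 times in S100A4-negative cells. It was 13.6-fold lower, at -3.77 ± 0.21, and stood at rank 144 from the lowest. Ctsw, which encodes cathepsin W, a papain-like protease of cytotoxic lymphocytes, was only just past the 2-fold size. Its brighter probe read 2.23 times the percentile in S100A4-positive cells and 4.72 times in S100A4-negative cells. The difference was -1.08 ± 0.20, or 2.11-fold lower, and normexp moved it to -0.84, under 2-fold. The other probe, whose sequence is given above, had processed signals of 316 in positive and 983 in negative cells and reached the 2-fold size as well.

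**Figure D2:**
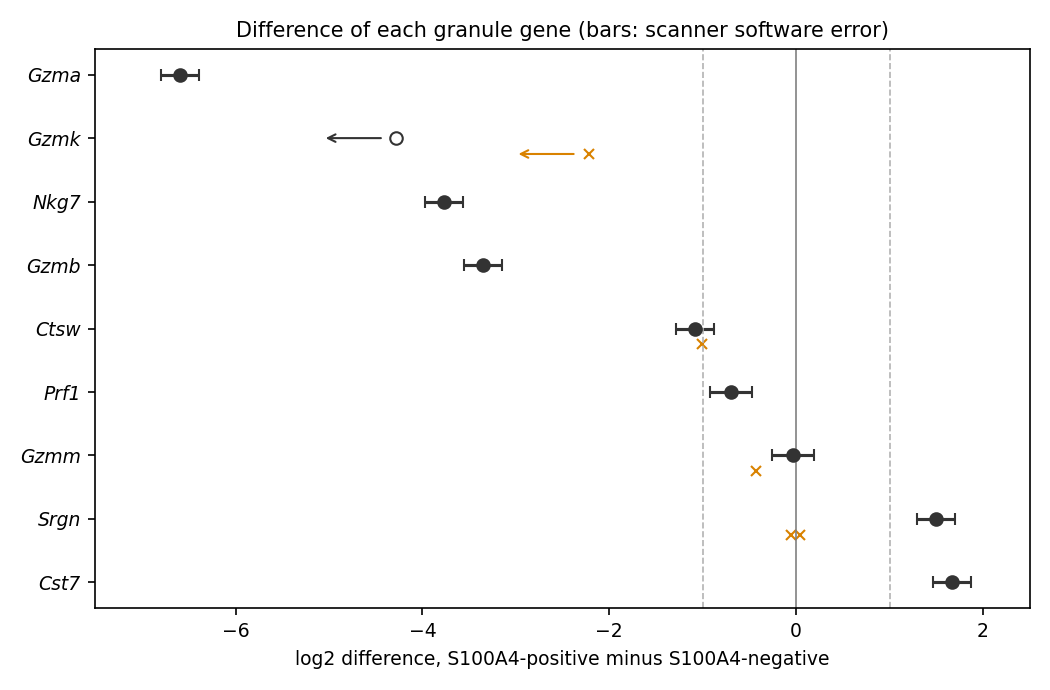
log2 difference of each gene, S100A4-positive minus S100A4-negative, at its brightest probe, with the scanner software's error as bars; crosses are the gene's other probes, open circles and arrows mark bounds, and dashed lines mark 2-fold. Gzma stands at -6.59 at the top and Cst7 at 1.66 at the bottom, and the other Srgn probes lie near 0.

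The 2 genes that were higher encode partners of the proteases rather than proteases. Cst7, which encodes cystatin F, an inhibitor of the cathepsins that process granzymes, read 6.03 times the percentile in S100A4-positive cells and 1.90 times in S100A4-negative cells. It was 3.17-fold higher, at 1.66 ± 0.20. Cystatin F is made by myeloid cells as well as by cytotoxic lymphocytes. The gap between Ctsw and Cst7 was -2.74 ± 0.29, and whether cystatin F acts on cathepsin W was not tested.

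Srgn, which encodes serglycin, the scaffold on which granule proteins are stored in lymphocytes, mast cells and myeloid cells, read 200 times the percentile in S100A4-positive cells and 71.1 times in S100A4-negative cells at its transcript probe. It was 2.82-fold higher there, at 1.49 ± 0.20. The other 2 probes, which the array assigns to other transcripts and which lie across or upstream of the second start, gave no such difference. A_55_P2715610 read 0.464 and 0.481 times the percentile in positive and negative cells, a difference of -0.05 ± 0.21, and A_66_P125332 read 0.0774 and 0.0753 times, a difference of 0.04 ± 0.35. The gap between the transcript probe and A_55_P2715610 was 1.55 ± 0.29, and it ran from 1.25 to 1.55 over 8 settings. A_66_P125332 was close to background, with raw signals of 1.54 and 1.70 times the local background on the positive and negative arrays. With the median over the probes in place of the brightest, Srgn stood at 0.04 and only Cst7 was at least 2-fold higher.

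The other granzyme genes of the mouse lie beside Gzmb on chromosome 14 and did not share its direction. Of 6 on the array, 4 (Gzmd, Gzmf, Gzmg and Gzmn) were well above background on neither array. Gzmc, the gene next to Gzmb, which encodes granzyme C, read 4.09 times the percentile in S100A4-positive cells and 0.231 times in S100A4-negative cells, and was 17.7-fold higher, at 4.14 ± 0.21. Gzme was detected in S100A4-positive cells only and was at least 4.24-fold higher, a bound of 2.08, which was 1.70 with quantile normalization and 1.05 with normexp. The gap between Gzmb and Gzmc was -7.49 ± 0.30 and ran from -7.60 to -6.98 over 11 settings, while the scaling on spike-ins left Gzmc at 1.64 and Gzme at a bound of 0.00. These genes are similar in sequence. The probes of different granzyme genes shared runs of at most 9 bases with each other. They were not compared with the transcripts of the other granzymes, so binding of a probe to another granzyme's transcript was not tested.

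**Figure D3:**
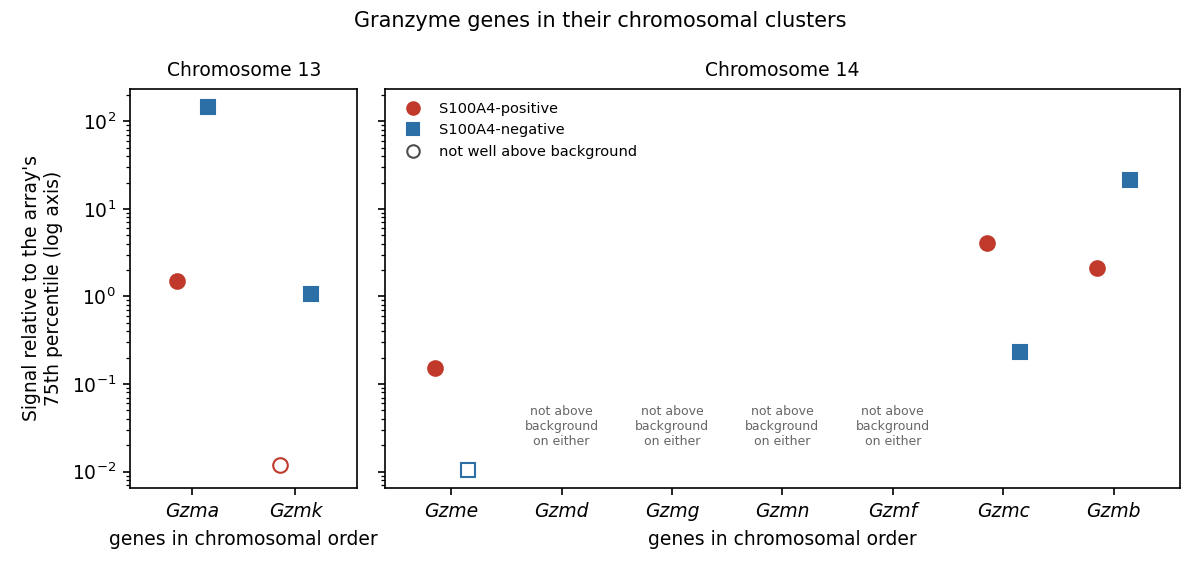
Signal of each granzyme gene of the chromosome 13 and 14 clusters relative to the array's 75th percentile (log axis), S100A4-positive as circles and S100A4-negative as squares to their right; open symbols were not well above background. Gzma, Gzmk and Gzmb are lower in the positive cells and Gzmc and Gzme higher, and the comparison holds within a gene only.

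The upstream sequences of the neighbours Gzmb and Gzmc, which went opposite ways, and of Gzma are shown from the RefSeq promoter windows (GRCm38.p6), 150 bases ending just before the start of the gene. The strand is minus for all. The regions are chr13:113100982-113101131 for Gzma, chr14:56262335-56262484 for Gzmb and chr14:56234658-56234807 for Gzmc. Capitals mark matches on either strand to TGTGGT, the core bound by Runx factors, TGANTCA, bound by AP-1, and TGACGTCA, the cyclic AMP response element.
Gzma: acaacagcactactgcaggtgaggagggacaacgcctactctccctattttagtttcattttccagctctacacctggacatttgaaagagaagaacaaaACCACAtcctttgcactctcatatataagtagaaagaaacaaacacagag
Gzmb: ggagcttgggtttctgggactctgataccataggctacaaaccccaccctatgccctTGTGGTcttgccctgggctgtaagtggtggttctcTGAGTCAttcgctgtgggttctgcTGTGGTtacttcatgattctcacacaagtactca
Gzmc: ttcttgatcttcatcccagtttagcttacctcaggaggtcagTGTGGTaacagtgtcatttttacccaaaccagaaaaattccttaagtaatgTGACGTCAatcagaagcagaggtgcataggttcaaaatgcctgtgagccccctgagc

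Within 250 bases upstream, TGTGGT was found in 7 of 10 windows of 8 granule genes with an entry, against 14% of 32851 windows of all genes. It was present in windows of genes that were lower (Gzma, Gzmb, Nkg7), within 2-fold (Prf1, Gzmm) and higher (Cst7, and the second start of Srgn). TGANTCA was found in 1 of 10 windows, that of Gzmb, against 6.75%. TGACGTCA was found in none of the 10 windows, against 1.55%. Among the other granzyme genes it was found for Gzmc and also for Gzmf and Gzmg, which were detected on neither array. It was not found for Gzme, which was higher as Gzmc was. TGTGGT was found for Gzmc, Gzmd, Gzme, Gzmf and Gzmg alike. TCACACC, bound by T-box factors, was found in 3 of 10 windows (Gzmk, Nkg7 and a start of Gzmm) against 3.33%, and GGAAGT, bound by Ets factors, in 4 of 10 (Cst7, Gzmk, Prf1 and the first start of Srgn) against 19.7%. No matches overlapped each other in these windows, and they describe sequence alone.

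Relative to the 75th percentile, other genes of the pathway were more often higher than lower. Of 54 detected genes in 7 lists of granule release, granzyme processing, inhibitors, transcription factors, effector molecules, serglycin glycosylation and other granzymes, 25 were higher by 2-fold or more and 7 were lower, with a median of 0.70, where all genes had 21.4% higher, 17.0% lower and a median of 0.01. With spike-in scaling the direction turned, to 6 higher and 35 lower. The counts of the single lists below stand against the same shares of all genes. In the machinery of granule release 6 of 12 genes were higher and 1 lower. Lamp1, a granule membrane protein, stood at 1.82 and the fusion gene Stx11 at 1.79, while Sytl2 was detected in S100A4-negative cells only, with a bound of -1.42 that normexp reduced to -0.28, under 2-fold. The list's median was 0.98.

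Of 6 genes for proteases that process granzymes or are bound by cystatin F, 4 were at least 2-fold higher and none lower. Ctsl, which encodes cathepsin L, read 40.2 times the percentile in S100A4-positive cells and 0.988 times in S100A4-negative cells, or 40.7-fold higher, and its other probe gave a log2 difference of 2.28. Ctsb, which encodes cathepsin B, stood at 2.46. Ctsc, which encodes cathepsin C, the activator of granzymes, stood at 0.73, under 2-fold, with its 3 probes between 0.73 and 2.27.

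Among genes for granzyme inhibitors and their partners, the largest differences were toward S100A4-positive cells. Serpinb9, which encodes the inhibitor of granzyme B, read 17.0 times the percentile in S100A4-positive cells and 0.986 times in S100A4-negative cells, 17.2-fold higher at 4.11 ± 0.20. Serpinb6b, whose product inhibits granzyme A, stood at 2.97 and Serpina3g, which encodes another serine protease inhibitor, at 2.77. Of 7 detected genes of this list 4 were higher, among them M6pr, a partner rather than an inhibitor, at 1.27. The serine protease inhibitor gene Serpinb6a lay within 2-fold, at -0.33. The 1 lower gene was Igf2r, a receptor through which granzyme B can bind cells, at -1.18, or -0.81 with normexp, under 2-fold.

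Among transcription factor genes of cytotoxic lymphocytes, 6 of 11 were higher by 2-fold or more and 1 was lower. Tbx21, which encodes T-bet, an activator of granzyme and perforin genes, was 2.81-fold lower, at -1.49 ± 0.21. Eomes, its relative, was detected in S100A4-negative cells only, with a bound of -0.71, or 0.00 with normexp. Id2 (3.62), Bhlhe40 (3.41), Nfil3 (2.65) and Runx3 (1.75) were higher, and other cell types express them too. The other effector molecules divided as well, 4 of 9 lower and 3 higher. Fasl, which encodes the death ligand of cytotoxic cells, was at least 13.1-fold lower and detected in S100A4-negative cells only, a bound of -3.71, or -1.83 with normexp. Ccl5, a chemokine stored in cytotoxic granules, was 4.91-fold lower and Ifng, which encodes interferon gamma, 2.98-fold lower. Tnfsf10, which encodes the death ligand TRAIL, stood at -1.56, or -0.83 with normexp, and its other probe at 0.31. Against them, Ccl4 (4.49), Ccl3 (3.79) and Tnf (3.41) were higher. None of 7 glycosylation genes for serglycin differed by 2-fold, and their median was 0.00.

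**Figure D4:**
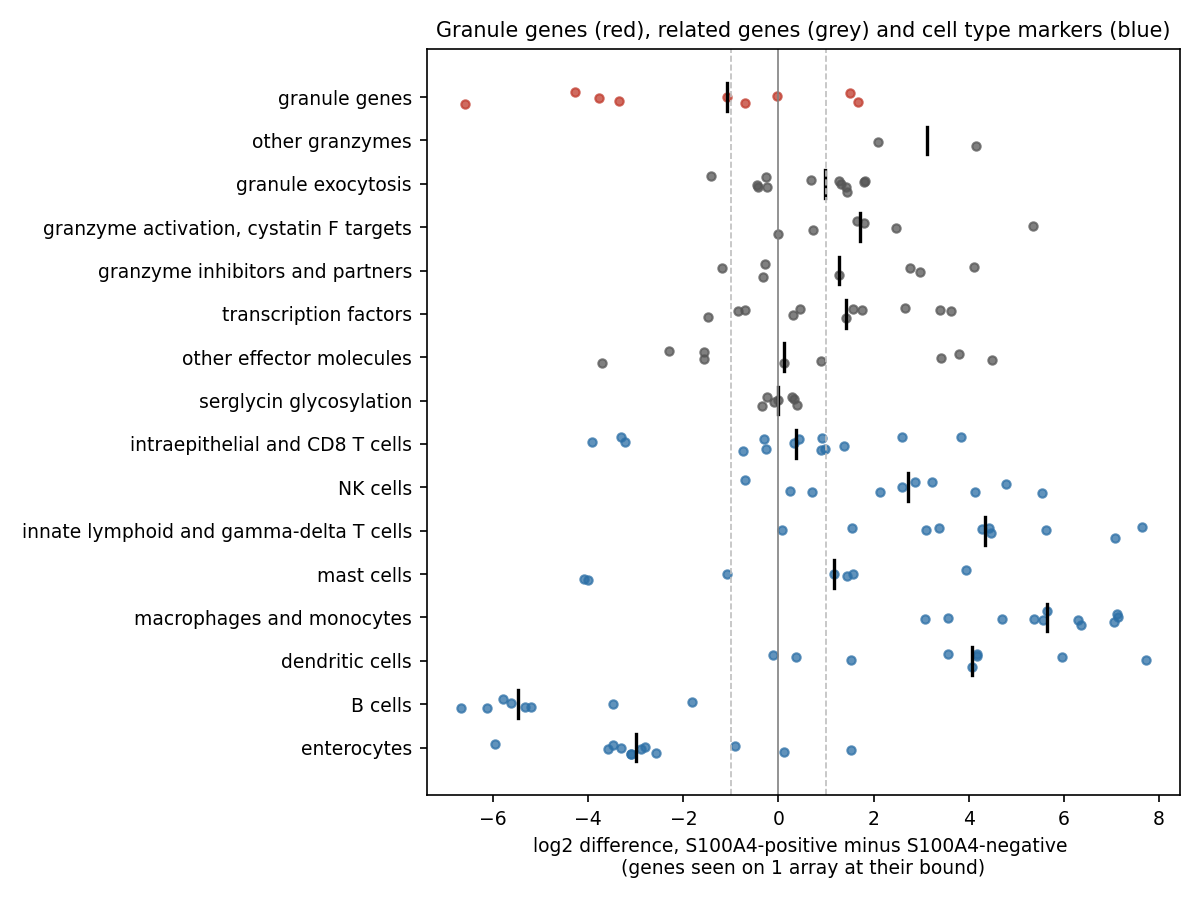
log2 difference, S100A4-positive minus S100A4-negative, of every detected gene in the granule set (red), the related lists (grey) and the cell type marker lists (blue), with bars at the medians and dashed lines at 2-fold. The granule genes run from -6.59 to 1.66, the B cell markers lie at -1.82 and below, and the macrophage markers at 3.08 and above.

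Markers of the cell types that the sorted populations could hold are given beside these genes, and their part in the results was not tested. Sums over a list add signals of different probes, so the brightest probes set them. Of 14 markers of intraepithelial and CD8 T cells, 3 were at least 2-fold lower and 3 higher, beside 17.0% and 21.4% of all genes, a share near the background. The median of the list was 0.37. The lower ones were the T cell receptor complex genes Cd3e (-3.92), Cd3g (-3.31) and Cd3d (-3.23), and Ccr9 (3.84) and Cd8b1 (2.59) were among the higher ones. The summed signal of this list was 164 times the percentile in S100A4-positive cells and 115 times in S100A4-negative cells. It was higher in the positive cells although the 3 Cd3 genes were lower. Ccr9 (42.0) and Cd8b1 (40.7) were the largest parts of the positive sum, while Cd8a lay within 2-fold, at 0.32. Gzmb (-3.35) was close to Cd3g and Cd3d in its difference, and its gap to Cd3e was 0.57 ± 0.29. Gzma was lower than Cd3e by a gap of -2.67 ± 0.29. Cd247, of the same list, stood at -0.30, with its 4 probes between -2.35 and 0.00, so likeness to T cell genes depends on the gene taken.

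Of 10 detected natural killer cell markers, 7 were at least 2-fold higher in S100A4-positive cells, opposite to Gzma, Gzmb and Nkg7. None was at least 2-fold lower. Klrb1c (0.71) and Klre1 (0.24) lay within 2-fold, and Eomes was detected in negative cells only, with a bound of -0.71. The summed signal of the list was 411 in positive and 20.4 in negative cells. Most of it came from the adaptor genes Tyrobp and Fcer1g, which myeloid cells also express. Without this pair, singled out after their values were seen, the other 8 detected markers summed to 29.9 in positive and 3.76 in negative cells. Tyrobp stood at 4.79, Fcer1g at 4.14 and Klrk1, which encodes the activating receptor NKG2D, at 5.54, or 4.69 with normexp. Ncr1 was detected in positive cells only, with a bound of 2.13, or 1.04 with normexp and 0.00 with spike-in scaling. Klrc1 and Itga2 were well above background on neither array. The list for innate lymphoid cells and gamma-delta T cells had 9 of 10 genes higher, with sums of 355 in positive and 12.5 in negative cells.

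Cell types that express Srgn and Cst7 outside cytotoxic lymphocytes also differed. All 11 macrophage and monocyte markers were at least 2-fold higher in S100A4-positive cells, with sums of 592 in positive and 9.29 in negative cells, and 7 of 9 detected dendritic cell markers were higher, with sums of 314 and 161. Of 7 detected mast cell markers 4 were higher, led by Kit (3.93), which other cells also express, and 3 lower, among them the protease genes Mcpt1 and Mcpt4, at bounds of -4.09 and -4.00, or -2.11 and -1.88 with normexp. The mast cell markers Tpsab1, Fcer1a and Ms4a2 were well above background on neither array.

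B cell and most enterocyte markers were lower, as Gzma and Gzmb were. All 8 B cell markers were at least 2-fold lower, with sums of 20.2 in S100A4-positive and 411 in S100A4-negative cells. Of 12 enterocyte markers 9 were lower and 1 was higher, with sums of 5.71 in positive and 37.9 in negative cells. Over the 2 arrays, the genes closest to Gzmb in both signals, among 11907 measured on both, were Gimap4, Ncapd2 and Ccnb2, and those closest to Nkg7 were Ms4a4b, Bfsp2 and Plk1. With 2 arrays this likeness describes a pair of signals.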

How the data were processed

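Total RNA was amplified and labelled with Cy3, per the labels' protocols, and hybridised to 1-colour Agilent arrays of design 74809. Per the file headers, the authors extracted both with Feature Extraction 10.7.1.1, but version 9.5.1.1 stands in the submitters' processing notes. Both arrays shared 1 slide and 1 scan. The deposited intensity of each spot was background-subtracted and spatially detrended within the array and not normalized between arrays, per the file headers. The flag columns, other deposited values, were used as given. The deposited value table, an intensity with a median of 19.6 in both columns, is linear and not centred, and its making is not described in the labels; its log2 values correlated with those of the scanner files at 0.9997 and 0.9998 over spots.

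Control spots and 210 outlier spots were left out, log2 intensity was centred on the 75th percentile, and spots of a probe were averaged. Probes were named by RefSeq accession (32993), symbol (10224) or synonym (520) in a GRCm38 gene table, and members by the name in the array files. A gene took its brightest probe among those well above background on at least 1 array; the dimmest such signal was 15.7 on the positive and 16.1 on the negative array. Sizes (2-fold) replaced tests, as groups of 1 array leave nothing to estimate a spread from. Precision is limited by the number of arrays; 286 replicated probes had a median SD between spots of 0.04 on the positive and 0.10 on the negative array (log2). Members, lists and motifs were chosen with earlier results of these data known. Named beside the members were S100a4, list genes with the largest differences each way or detected on 1 array, and the 3 genes nearest to each member at least 4-fold different and measured on both arrays; those nearest to Gzma are not reported here. Promoter sequences are RefSeq's (GRCm38.p6). The steps were tested on simulated data, with noise between spots alone and genes detected on both arrays. That checks the calculation and holds nothing of the variation among animals or sorts. Alternatives were run with limma 3.58.1 in R 4.3.3, the rest in Python 3.11.15 (pandas 2.3.3, numpy 2.4.6).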

Additional observations from a re-analysis of the deposited data

How the results depend on the processing

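Scaling on 7 spike-in probes, which were 3.65-fold brighter on the positive array, shifted all genes measured on both arrays by -2.50. It gave 8 granule genes at least 2-fold lower, 0 higher, a median of -3.58, and 35 lower and 6 higher pathway genes. Cst7 then stood at -0.84, Srgn at -1.01, Lamp1 at -0.67, Stx11 at -0.71, Ctsb at -0.04 and Runx3 at -0.75, below 0 where they were above it. With no scaling, which shifted all genes measured on both arrays by -0.63, 1 granule gene was at least 2-fold higher. The median was then -1.71 and 11 pathway genes were lower. Normexp gave a median of -0.84 and 4 lower pathway genes, and the median over a gene's probes left 1 granule gene higher. In the first 2 cases the shift itself accounts for the change; the cause of the others was not tested. Gzma (-9.09 to -6.58), Gzmb (-5.85 to -3.34), Nkg7 (-6.27 to -3.38) and the gene value of Gzmk (bounds and unfiltered values, -6.78 to -2.41) were at least 2-fold lower under all of the alternatives that gave a value, and Gzmc (1.64 to 4.24) at least 2-fold higher. The count of granule genes at least 2-fold lower ranged from 4 to 8 and was 4 with normexp, where Ctsw stood at -0.84. Gzmk gave no value over probes detected on both arrays. No paired analysis was possible because each group has 1 array. Signals of Gzmm, Prf1 and the Srgn probe A_66_P125332, under 4 times the local background, limit what can be said of small differences there. The Srgn probe A_55_P2715610 was dim too, at 3.61 times on the positive and 4.64 times on the negative array. So was the dimmer Gzmk probe, at 2.93 times on the negative array.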
